A study of Mus musculus with 225 samples.

Results

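The genes described here are 10 imprinted genes known for effects on growth: *Mest*, *Igf2*, *Dlk1*, *Peg3*, *Plagl1* and *Ndn*, of which the copy inherited from the father is the active one, and *H19*, *Meg3*, *Cdkn1c* and *Grb10*, of which it is mostly the copy inherited from the mother. They were chosen by the tissue difference of 1 of them: *Mest* was among the genes with the largest difference between the zeugopod and the autopod of the mouse forelimb in these same cells, so the tissue differences below describe the genes and test nothing. All 10 were found among the 23165 genes with deposited read counts and among the 10948 genes with deposited normalized values. A gene was taken into comparisons across genes when at least 25% of the retained cells of either tissue had at least 5 reads on it, which 4898 genes did, all 10 imprinted growth genes included. *Dlk1* met this through the zeugopod alone and therefore had to differ, while the other 9 met it in each tissue.

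The study sequenced polyadenylated RNA of single forelimb cells at E12.5 from the autopod, which forms the digits, and the zeugopod, which forms the forearm. All embryos were Hoxd11::GFP heterozygous on a mixed C57Bl6CBAF1 background, with a tau-GFP knock-in at *Hoxd11*. The cells with the brightest GFP were sorted from pooled embryos and captured on a C1 chip, so each tissue is 1 pooled sample of *Hoxd11*-active cells and its cells are not replicates. Run NXT0072 held 69 autopod cells, NXT0142 held 60 zeugopod cells, and NXT0143 held 69 zeugopod cells beside 27 autopod cells. The authors retained 76 of 96 autopod cells (59 in NXT0072 and 17 in NXT0143) and all but 6 zeugopod cells (58 in NXT0142 and 65 in NXT0143). The depth of a retained cell, as reads on genes, had a median of 2830024.5 in the autopod (187344 to 9437447) and of 3233736 in the zeugopod (186271 to 6801278). The median number of genes detected, with at least 1 read, was 3684 in autopod cells and 3995 in zeugopod cells. By run it was 3528 in NXT0072 and 3965 in NXT0143 for the autopod, and 4283.5 in NXT0142 and 3745 in NXT0143 for the zeugopod.

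Imprinted genes are read mainly from the copy inherited from a single parent, through DNA methylation set in the germ line. Many of them regulate the growth of the embryo and the placenta: paternally expressed genes such as *Igf2* tend to promote growth, and maternally expressed genes such as *Cdkn1c* and *Grb10* tend to restrain it. Several lie in clusters that share a control region, as *Igf2* and *H19* do, and *Dlk1* and *Meg3*. The deposited counts do not separate the parental copies, so the imprint itself was not measured.

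The cells of each tissue were compared with markers of cell types, which do not test the tissue labels themselves. Of 5 limb mesenchyme markers, at least 1 had 5 or more reads in 66 of 76 autopod cells and, for the zeugopod, in 58 of 58 cells of NXT0142 and 60 of 65 of NXT0143. The summed level of these markers was 755 reads per 1000000 reads on genes (CPM) in the autopod, where *Prrx1* was the most abundant, and 947 CPM in the zeugopod, where *Tbx5* was. The single markers went different ways by log2 difference, autopod minus zeugopod. *Twist1* had 2.44 and *Prrx2* 2.24, but *Tbx5* had −2.63 and *Prrx1* −0.33. Within NXT0143 they had 1.12, 0.22, 0.20 and −1.42. *Meis1*, a proximal limb marker, reached 5 reads in 0 autopod cells and in 3 zeugopod cells. The muscle regulators *Myod1* and *Myog* had 0 reads in the retained cells. The 5 muscle markers summed to 0.772 CPM in the autopod, where *Actc1* was the most abundant, and 0.617 CPM in the zeugopod, where *Pax7* was. *Pax7* reached 5 reads in 1 autopod cell and 15 zeugopod cells. Endothelial markers summed to 0.0780 and 0.313 CPM, macrophage markers to 0.205 and 0.741 CPM, and the single blood marker in the table, *Hba-x*, to 0.0944 and 0.00252 CPM.

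The 5 chondrogenic markers summed to 3217 CPM in the autopod and 1827 CPM in the zeugopod, with *Sox9* the most abundant in each. Their directions differed. By log2 difference, autopod minus zeugopod, *Sox9* had 3.14 and *Col9a1* 2.29, but *Col2a1* had −1.54 and *Acan* −0.30. Within NXT0143 *Col2a1* had 0.80 and *Acan* −0.25. *Col2a1* reached 5 reads in 56.6% of autopod and 91.1% of zeugopod cells. *Matn1* was at 0 reads in the autopod and reached 5 reads in 4 zeugopod cells. The 3 tendon markers summed to 8.53 CPM in the autopod, where *Scx* was the most abundant and *Tnmd* had 0 reads, and to 213 CPM in the zeugopod, where *Tnc* was. The 5 epithelial markers summed to 2.69 CPM in the autopod and 45.2 CPM in the zeugopod, nearly all of it *Epcam*, which reached 5 reads in 2 autopod and 9 zeugopod cells, and *Krt5* was at 0 in each tissue. The part of tendon-like and epithelial reads in the differences below was not tested.

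*Mest* lies on the plus strand of chromosome 6 (chr6:30723547-30748465, GRCm38, as all gene positions here) and encodes a protein of the hydrolase fold family. *Igf2* (chr7:142650766-142666816, minus strand), the insulin-like growth factor of the embryo, and *H19* (chr7:142575529-142578143, minus strand), a long noncoding RNA, start 88.7 kb apart. *Dlk1* (chr12:109452823-109463336, plus strand), a transmembrane protein with EGF-like repeats, and *Meg3* (chr12:109541001-109571726, plus strand), a long noncoding RNA, start 88.2 kb apart. *Cdkn1c* (chr7:143458339-143461050, minus strand), an inhibitor of cyclin-dependent kinases, lies 883 kb from *H19* by their starts. *Peg3* (chr7:6703892-6730431, minus strand) encodes a zinc finger protein, *Ndn* (chr7:62346569-62350262, plus strand) a protein of the MAGE family, *Plagl1* (chr10:13060504-13131694, plus strand) a zinc finger transcription factor and *Grb10* (chr11:11930508-12038683, minus strand) an adaptor that dampens signalling of the insulin and IGF1 receptors. The exons of *Mest* overlap those of *Copg2* on the opposite strand, which the library kit does not tell apart. *Copg2* had 38427 reads in the retained cells against 872119 on *Mest*, and its log2 difference between autopod and zeugopod was −0.29.

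RefSeq promoter windows of GRCm38.p6, from 250 bases before to 50 bases after a start, were available for 8 of the 10 genes and not for *H19* and *Cdkn1c*. The windows of *Mest*, the gene behind the choice, of *Igf2*, which varied most closely with *H19*, and of *Dlk1* and *Meg3*, the most closely correlated pair in the zeugopod, are printed 5′ to 3′ on the strand of the gene. For genes with several starts the window with the most CpG is shown. Capitals mark 3 motifs searched on both strands: GGGCGG, the core of the GC box, TGCCGC, the core of the sequence that Zfp57 recognizes when methylated, and TATAAA, the TATA box.
Mest chr6:30737800-30738099, plus strand: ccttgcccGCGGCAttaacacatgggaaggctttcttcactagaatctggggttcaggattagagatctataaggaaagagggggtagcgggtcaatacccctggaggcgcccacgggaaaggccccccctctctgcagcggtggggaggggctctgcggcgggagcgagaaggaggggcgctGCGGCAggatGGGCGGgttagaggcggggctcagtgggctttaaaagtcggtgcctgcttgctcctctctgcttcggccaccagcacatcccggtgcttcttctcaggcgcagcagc
Igf2 chr7:142658755-142659054, minus strand: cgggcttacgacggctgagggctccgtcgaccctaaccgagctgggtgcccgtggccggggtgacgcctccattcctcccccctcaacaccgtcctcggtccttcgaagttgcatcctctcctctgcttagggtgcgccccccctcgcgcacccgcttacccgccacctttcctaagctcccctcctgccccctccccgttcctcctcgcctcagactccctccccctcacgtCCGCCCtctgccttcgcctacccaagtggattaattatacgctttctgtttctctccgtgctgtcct
Dlk1 chr12:109452573-109452872, plus strand: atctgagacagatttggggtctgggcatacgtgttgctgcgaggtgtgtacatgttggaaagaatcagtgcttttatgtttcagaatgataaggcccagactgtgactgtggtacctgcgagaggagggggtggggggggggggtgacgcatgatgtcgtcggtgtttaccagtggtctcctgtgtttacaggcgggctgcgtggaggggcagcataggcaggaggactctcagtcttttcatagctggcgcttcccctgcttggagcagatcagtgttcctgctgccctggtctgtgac
Meg3 chr12:109540746-109541045, plus strand: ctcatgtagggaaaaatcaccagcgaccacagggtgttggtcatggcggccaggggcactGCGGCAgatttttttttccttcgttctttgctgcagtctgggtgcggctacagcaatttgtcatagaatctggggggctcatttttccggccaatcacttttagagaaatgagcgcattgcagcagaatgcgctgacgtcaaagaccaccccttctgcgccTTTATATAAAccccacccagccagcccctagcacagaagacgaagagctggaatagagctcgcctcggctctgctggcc

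The *Mest* window holds 17 CpG, 1 GGGCGG and 2 TGCCGC. The *Igf2* window holds 24 CpG and 1 GGGCGG, on its other strand. The *Dlk1* window holds 9 CpG and no match to the 3 motifs. The *Meg3* window holds 13 CpG, 1 TGCCGC and 2 matches to TATAAA, 1 on each strand, which overlap in a stretch of 10 bases. Over the 32851 promoter windows of the reference the median was 7 CpG, with quartiles of 3 and 20. GGGCGG occurred in 35.7% of all windows, in 8 of all 15 windows of these genes and in 5 of the 8 chosen by CpG, TGCCGC in 11.6%, 6 of 15 and 4 of 8, and TATAAA in 13.6%, 1 of 15 and 1 of 8. The choice by CpG favours motifs that hold CpG. These matches describe the letters of the windows, and binding was not measured.

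Levels are given as the authors' normalized values, which are reads divided by a size factor from spike-ins and rounded, plus 1, and divided by the gene's length in kb. A gene without reads therefore sits at a floor set by its length. The size factors recovered from the values had the same mean, 1.24, in each of the 3 runs, so only the cells of NXT0143 compare the tissues on 1 scale, and levels over all cells also hold the difference between runs. Within the runs the size factors did not follow the summed spike-in reads under the same cell names in the raw counts, with Spearman coefficients of −0.22 in NXT0072, 0.09 in NXT0142 and 0.12 in NXT0143, and the reason was not tested. Values by CPM use neither. A gene is called on in a cell with at least 5 reads of it, and shares of such cells carry exact binomial (Clopper-Pearson) 95% intervals. Reads are copies made by PCR with no molecular identifiers, so counting error alone is covered by these intervals and by the limits given for 0 cells, which are 3 of the cells counted.

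*Mest* ranged from 0.328, its floor, to 21443 in the autopod, with a median of 17.9, and from 0.328 to 9863 in the zeugopod, with a median of 1319.9. Within NXT0143 the median was 391 in autopod cells (0.328 to 3039.7) and 1438 in zeugopod cells (0.328 to 9166). The autopod cells of NXT0072 had a median of 2.95 and the zeugopod cells of NXT0142 of 1232. The ranges of the tissues overlapped: 11 of 76 autopod cells, and 5 of 17 within NXT0143, reached the zeugopod median. *Mest* was on in 46 of 76 autopod cells (60.5%, 48.6 to 71.6) and in 55 of 58 and 62 of 65 zeugopod cells of NXT0142 and NXT0143 (together 95.1%, 89.7 to 98.2).

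The *Igf2* median was 178 in the autopod (0.178 to 6857) and 770.5 in the zeugopod (19.9 to 3625). Within NXT0143 the medians were 176 and 666, close to the 180.4 of NXT0072 for the autopod and below the 949.7 of NXT0142 for the zeugopod. Every retained zeugopod cell had at least 5 reads of this growth factor (100%, 97.05 to 100), as did 71 of 76 autopod cells (93.4%, 85.3 to 97.8). The tissues overlapped, with 23 of 76 autopod cells, but 2 of 17 within NXT0143, at or above the zeugopod median. The *H19* RNA had the highest median of the 10 genes in the zeugopod, 3502 (0.931 to 38871), and a median of 671 in the autopod (0.465 to 58308). Within NXT0143 the *H19* medians were 1812 in autopod and 2591 in zeugopod cells, and the highest value of all, 58308, was in an autopod cell of this run.

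*Dlk1* had 0 reads in all 76 autopod cells, a count with a limit of 3.95% (3 of 76) and an upper end of 4.74% by the exact interval. In the zeugopod 78 cells (63.4%) had at least 1 read and 69 had at least 5 (56.1%, 46.9 to 65.03), and its normalized value ran from the floor of 0.177 to 344, with a median of 2.65. Within NXT0143 0 of 17 autopod cells, with a limit of 17.6% (3 of 17) and an exact upper end of 19.5%, stood against 39 of 65 zeugopod cells (60%, 47.1 to 71.96). In NXT0142 30 of 58 zeugopod cells had *Dlk1* (51.7%, 38.2 to 65.05). So *Dlk1* reads were in most zeugopod cells of each run and were not detectable in the autopod at this number of cells.

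*Meg3*, the neighbour of *Dlk1*, was not restricted in this way. It had at least 5 reads in 28 of 76 autopod cells (36.8%, 26.1 to 48.7) and in 52 of 58 and 63 of 65 zeugopod cells by run (together 93.5%, 87.6 to 97.2). Its normalized value reached 182 in the autopod, where the median was the floor of 0.0603, and 837 in the zeugopod, where the median was 37.8. Within NXT0143 the medians were 0.121 and 36.7, and 4 of 17 autopod cells reached the zeugopod median.

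*Cdkn1c* and *Grb10*, which restrain growth, had higher medians in the autopod. The *Cdkn1c* median was 1215 in the autopod (0.517 to 17855), the highest of the 10 genes over all autopod cells, and 699.9 in the zeugopod (0.517 to 16388). Within NXT0143 the medians were 1159, below that of *H19*, and 462. *Grb10* had a median of 254 in the autopod (0.219 to 3929) and 126.1 in the zeugopod (0.110 to 3175), and within NXT0143 of 361 and 83.96. For each of these 2 genes 51 of 76 autopod cells lay at or above the zeugopod median, and within NXT0143 13 of 17 did for *Cdkn1c* and 12 of 17 for *Grb10*.

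The *Peg3* median was 19.2 in the autopod (0.0750 to 2676) and 148 in the zeugopod (0.0750 to 2759.7), but 130.2 and 128.6 within NXT0143. The *Ndn* median was 13.6 in the autopod (0.605 to 9495) and 33.3 in the zeugopod (0.605 to 7604), while within NXT0143 the autopod cells had the higher median, 93.7 against 58.04. *Plagl1* was on in the fewest zeugopod cells, 37 (30.1%, 22.1 to 39.005), and in 28 of 76 autopod cells (36.8%, 26.1 to 48.7), with its median at the floor of 0.128 in each tissue and highest values of 566 and 405.

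In the order of medians per kb, the zeugopod had *H19*, *Mest*, *Igf2*, *Cdkn1c*, *Peg3*, *Grb10*, *Meg3*, *Ndn*, *Dlk1* and *Plagl1*, and each gene's quartile range overlapped that of its neighbour in the order. The autopod had *Cdkn1c*, *H19*, *Grb10*, *Igf2*, *Peg3*, *Mest*, *Ndn*, *Dlk1*, *Plagl1* and *Meg3*. There too the quartile ranges of neighbours overlapped, except for *Ndn* and *Dlk1*, and the last 3 medians are floors whose order follows gene length. *Mest* thus stood at place 2 in the zeugopod, as it did in each zeugopod run, and at place 6 over all autopod cells, with place 7 in NXT0072 and place 3 in NXT0143.

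**Figure D1:**
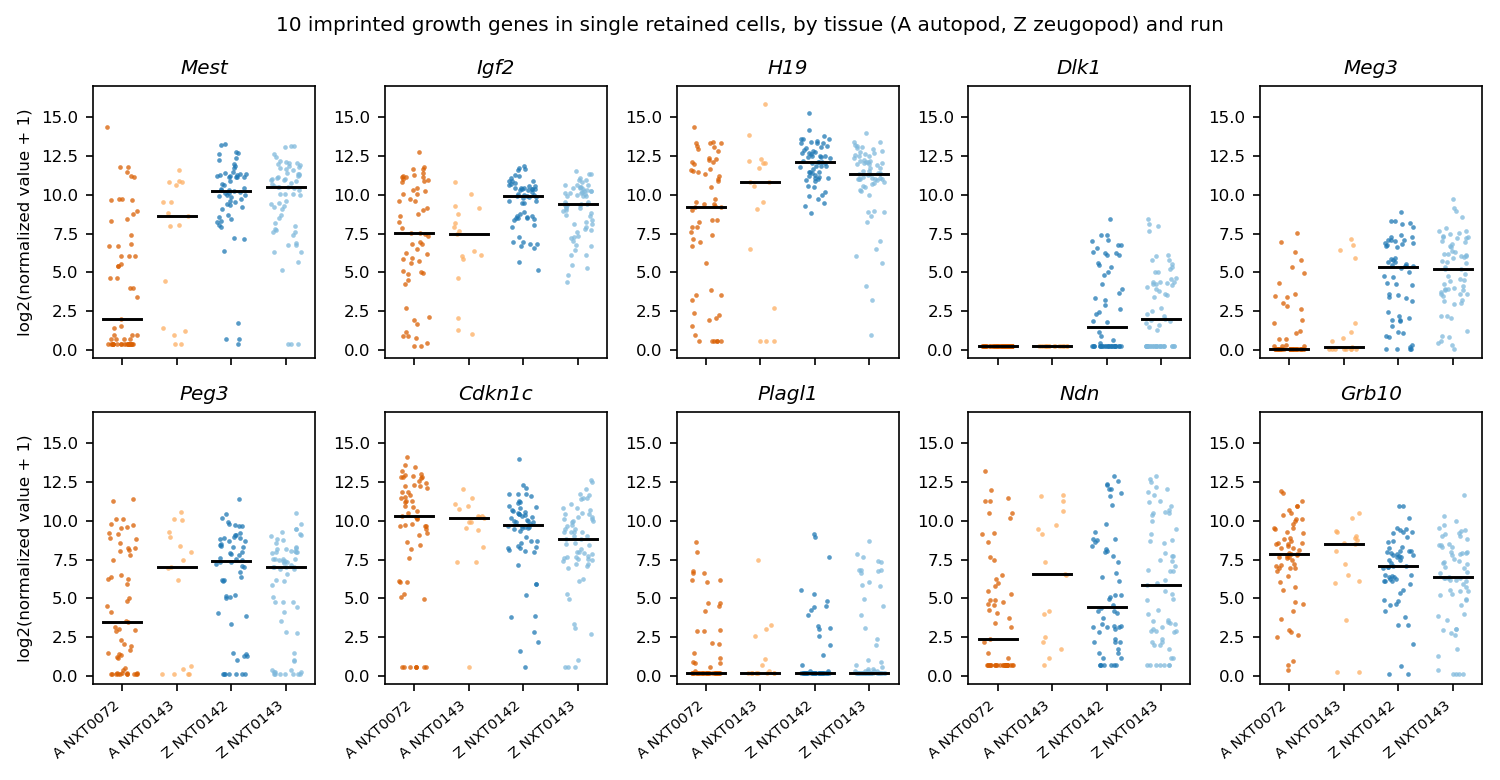
Normalized value of each imprinted growth gene in each retained cell on a log2(value + 1) scale, by tissue and run, with 1 point per cell spread sideways at random for visibility and a black bar at each median. *Dlk1* stays at its floor in all autopod cells, while *Mest* spreads from its floor to 21443 in the autopod and lies mostly high in the zeugopod.

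Differences between the tissues were taken as the mean of log2(normalized value + 1) over autopod cells minus that over zeugopod cells. *Mest* had a difference of −4.88 over all retained cells, the largest toward the zeugopod among the 4898 genes, and −2.80 within NXT0143. For *Meg3* the difference was −3.44, and −3.16 within NXT0143. For *H19* it was −3.06 and −1.89, for *Dlk1* −2.43 and −2.40, and for *Igf2* −2.14 and −2.37. With 0 autopod reads, the size of the *Dlk1* value depends on the pseudocount, with −3.54 over all cells at a pseudocount of 0.1 and −1.07 at 10, and *Meg3* had −4.99 and −1.73. Thus *Dlk1*, *Igf2* and *Meg3* differed about as much within the shared run as over all cells, and *Mest* and *H19* less. *Peg3* had −1.27 over all cells and −0.08 within NXT0143, and *Ndn* had −1.27 and 0.43, so neither kept a 2-fold difference in the run that held both tissues. *Grb10* was higher in the autopod by 0.96 and 0.94, and *Cdkn1c* by 0.58 and 1.08, whereas *Plagl1* had −0.11 and −0.71.

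Over all retained cells 7 of the 10 genes were at least 2-fold higher in the zeugopod, where 13.4% of the 4898 genes were, and 0 were at least 2-fold higher in the autopod, where 6.06% were. Within NXT0143 there were 5 toward the zeugopod, against 9.21% of all genes, and 1 toward the autopod, *Cdkn1c*, against 18.4%. By CPM within that run there were 5 and 0, against 14.7% and 15.9%, with *Cdkn1c* at 0.49. Between the autopod cells of NXT0072 and the zeugopod cells of NXT0142, where tissue and run cannot be told apart, there were 7 and 0, against 24.3% and 6.64%. In all 3 comparisons the same 5 genes, *Mest*, *Igf2*, *H19*, *Dlk1* and *Meg3*, were at least 2-fold higher in the zeugopod, against 3.88% of all genes, and 0 in the autopod, against 1.96%. Since the tissue difference chose the genes, nothing is read from these counts. Without the chondrogenic cells there were 6 toward the zeugopod, with *Ndn* at −0.79, and 1 toward the autopod, *Grb10* at 1.37, against 12.5% and 13.1%, and there *Cdkn1c* at −0.09 and *Plagl1* at 0.30 had the other sign.

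The scale moved these values in part. The median difference of all 4898 genes was −0.12 over all cells and −0.29 when log2(CPM + 1) took the place of the normalized values, and within NXT0143 it was 0.18 and −0.02. Relative to those medians *Mest* had −4.77 and −5.06 over all cells, and −2.98 and −3.29 within NXT0143. *Meg3* moved most, from −3.33 to −4.80 over all cells and from −3.34 to −4.88 within NXT0143. *Ndn* within NXT0143 was 0.25 above the median with normalized values and −0.01 from it with CPM, so its direction there rests on the scale. *Plagl1* over all cells had 0.01 and 0.17 relative to the medians, against differences of −0.11 and −0.12, so its direction there depends on the reference.

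**Figure D2:**
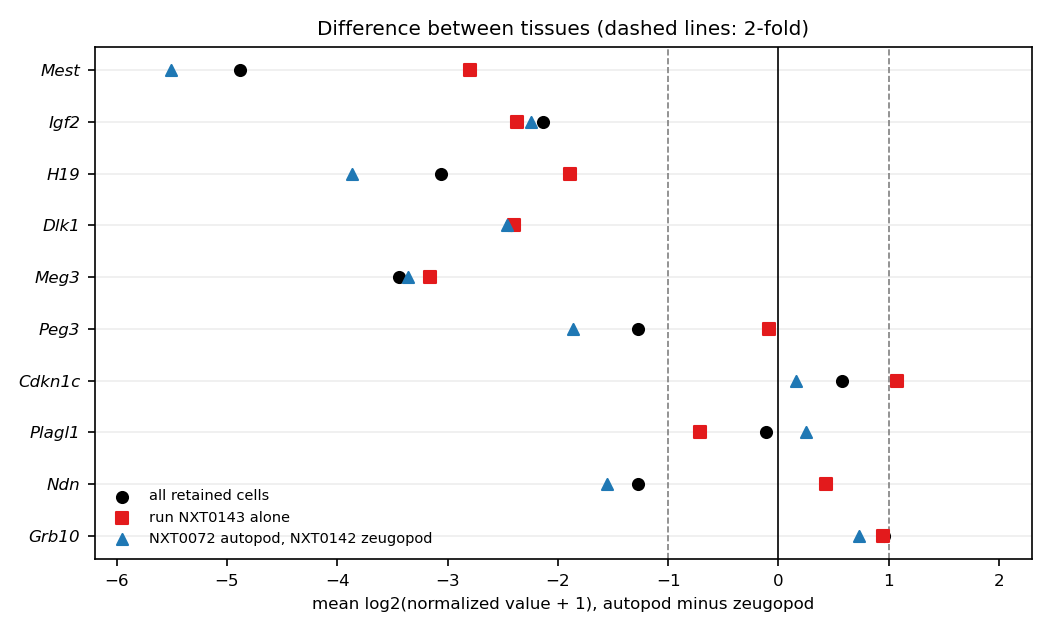
Difference in mean log2(normalized value + 1), autopod minus zeugopod, for each of the 10 genes over all retained cells, within run NXT0143, and between the autopod cells of NXT0072 and the zeugopod cells of NXT0142, with dashed lines at 2-fold. *Mest*, *Igf2*, *H19*, *Dlk1* and *Meg3* lie beyond the zeugopod line in all 3 comparisons, while *Ndn* and *Plagl1* change side.

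Single cells also differed in how many of the 10 genes they had on. Autopod cells had 3 to 9 of them with at least 5 reads, with a median of 7, and zeugopod cells 4 to 10, with a median of 9, where the median cell had 40.3% and 43.9% of all 4898 genes on. *Dlk1*, at 0 in the autopod, is among the 10, and without it the medians were 7 and 8 of 9. At least 8 were on in 12 of 59 and 5 of 17 autopod cells of NXT0072 and NXT0143, and in 44 of 58 and 54 of 65 zeugopod cells of NXT0142 and NXT0143. All 10 were on in 15 zeugopod cells, and 5 or fewer in 21 autopod and 6 zeugopod cells. Together the 10 genes took a median of 0.504% of the reads on genes in autopod cells (0.0361% to 5.90%) and 0.915% in zeugopod cells (0.271% to 3.11%).

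Coordination was measured as the Spearman rank correlation between normalized values across the cells of a tissue. These cells share a library preparation, and genes in a cell rise and fall with its depth and its run, so the coefficients are descriptions without a p. In the zeugopod the median over the 45 pairs of the 10 genes was 0.238 across all retained cells, where the median over all pairs of the 4304 genes that met the minimum of reads in this tissue was 0.0793. It was 0.163 across the 58 cells of NXT0142 and 0.287 across the 65 of NXT0143. With CPM it was 0.112, and given the number of genes detected per cell 0.138, against 0.0328 and 0.0129 for all pairs. In the autopod the median over 36 pairs, without *Dlk1*, was 0.222 across 76 cells. The median over all pairs of the 4032 genes that met the minimum there was 0.149. The 36 pairs had 0.117 with CPM and 0.123 given the genes detected, against 0.0626 and 0.0179 for all pairs. Within runs they had 0.169 in NXT0072 and 0.135 in NXT0143, against 0.166 and 0.1004 for all pairs. Within NXT0072 the 36 pairs were thus barely above all pairs. The 10 genes were on more widely than genes at large. The median cell had 90% of them on in the zeugopod and 70% in the autopod, against 43.9% and 40.3% of the 4898 genes. All pairs were not matched for this, and its part was not tested. A coefficient of at least 0.3 was found in 9 of the 45 zeugopod pairs (20%, against 1.59% of all pairs) and in 9 of the 36 autopod pairs (25%, against 12.9%). These counts depend on the cells and the scale. In the zeugopod there were 21 within NXT0143 (against 4.28% of all pairs), 14 without the chondrogenic cells (3.81%) and 4 by CPM (0.25%). In the autopod there were 14 within NXT0072 (18.4%), 10 within NXT0143 (22.1%) and 18 without the chondrogenic cells (23.8%). Autopod counts were 2 by CPM (2.99%), 2 given the genes detected (1.14%) and, after thinning all cells to 500000 reads, 1 (2.78%, against 2.57%). Most pairs were therefore weakly related in each of these settings except the autopod without the chondrogenic cells, where 18 of 36 reached 0.3. A weak coefficient in sparse counts is no finding.

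A few pairs in the zeugopod were more closely related. The highest coefficient was that of *Dlk1* and *Meg3*, 0.53, with 0.46 within NXT0142 and 0.59 within NXT0143. It came first of the 45 pairs under each scaling, with 0.42 by CPM, 0.49 given the genes detected and 0.44 after thinning. *Igf2* and *H19* followed with 0.50 (0.39 within NXT0142, 0.60 within NXT0143), and had 0.32 by CPM and 0.42 given the genes detected. *H19* and *Cdkn1c* had 0.49 (0.45 and 0.48 by run), and 0.34 and 0.39 by those scalings. *Dlk1* and *Cdkn1c* had 0.37 (0.37 and 0.39 by run), place 4, and with 0.34 by CPM stood at place 2 on that scale, above *Igf2* and *H19*, while given the genes detected they had 0.25. The link of *Mest* to *Igf2*, 0.35, fell to 0.11 by CPM.

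*Dlk1* and *Meg3* were also compared cell by cell. In the 69 zeugopod cells with at least 5 *Dlk1* reads, the median *Meg3* value was 70.6 (quartiles 24.9 and 153), and in the other 54 it was 11.1 (2.92 and 42.2). Within NXT0142 the medians were 52.8 and 10.1, and within NXT0143 76.8 and 11.8. Cells with *Dlk1* also had more genes detected, a median of 4210 against 3689.5. *Meg3* was on in 67 of the 69 cells with *Dlk1* and in 48 of the 54 without it (88.9%).

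In the autopod the highest coefficient was that of *Cdkn1c* and *Ndn*, 0.43, which was −0.06 across the 17 cells of NXT0143 and 0.18 given the genes detected. *Mest* and *Ndn* had 0.42, and 0.15 given the genes detected. *Ndn* itself had a coefficient of 0.62 with the number of genes detected in autopod cells, and *Mest* 0.52. *Igf2* and *H19* had 0.39 over all autopod cells, 0.44 within NXT0072, 0.39 within NXT0143, 0.35 by CPM and 0.38 given the genes detected, but 0.23 without the chondrogenic cells. *H19* and *Cdkn1c* had 0.36, with 0.37 in each run, and 0.21 by CPM and after thinning. Sharing a chromosome at any distance did not separate the zeugopod pairs. The median was 0.239 over 11 such pairs and 0.235 over the other 34. The autopod had 0.289 over 10 and 0.162 over 26. Some of these pairs start far apart, as *Igf2* and *Peg3* do, by 135936 kb, with 0.13 in the zeugopod. Pairs that start within 883 kb had higher zeugopod values. *Dlk1* and *Meg3* had 0.53, *Igf2* and *H19* 0.50, *H19* and *Cdkn1c* 0.49, and *Igf2* and *Cdkn1c* 0.34, at place 6. In the autopod *Igf2* and *Cdkn1c* had 0.15, at place 22. The part of distance was not tested.

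**Figure D3:**
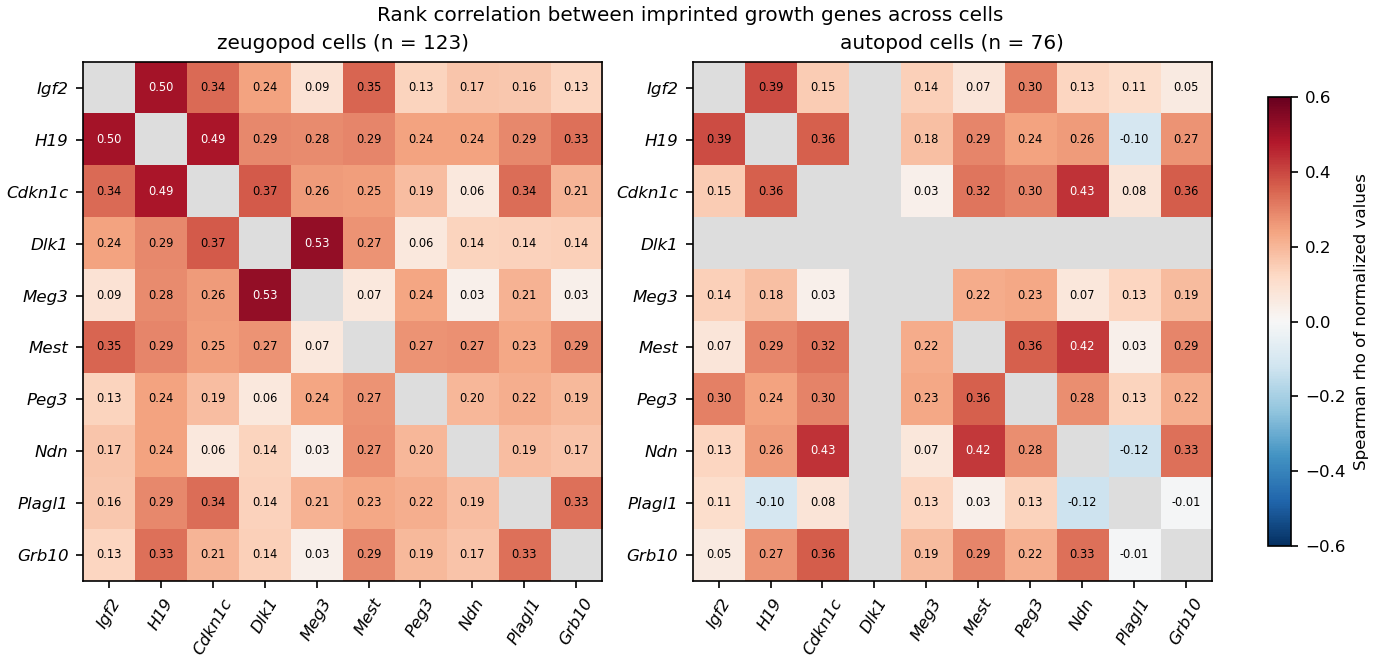
Spearman coefficients between normalized values of the imprinted growth genes across zeugopod cells (58 of NXT0142 and 65 of NXT0143) and across 76 autopod cells, with the coefficient printed in each square and colour showing its sign and size. *Dlk1* with *Meg3* (0.53), *Igf2* with *H19* (0.50) and *H19* with *Cdkn1c* (0.49) are the darkest squares in the zeugopod, and *Dlk1* is grey in the autopod because it has no reads there.

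**Figure D4:**
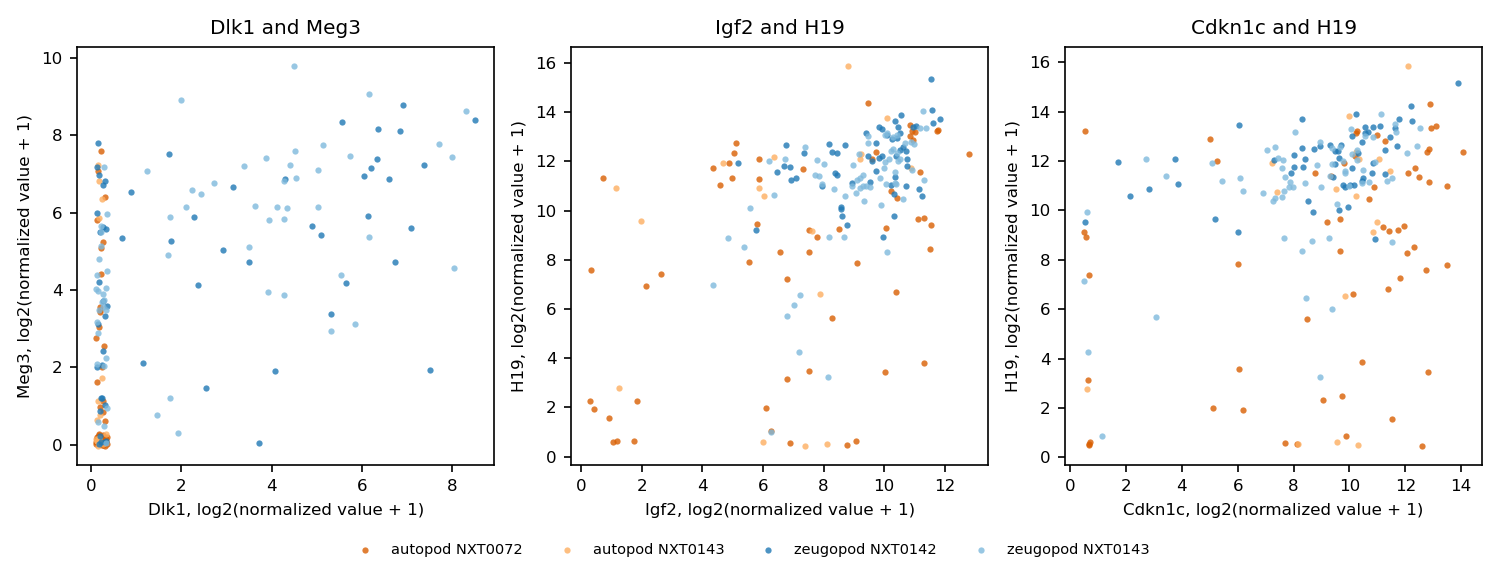
Values of 3 gene pairs in each retained cell on log2(normalized value + 1) axes, with colours for tissue and run and a small random shift of each point so that cells at the floor can be seen. *Dlk1* lies at its floor in all autopod cells and in part of the zeugopod cells, and most zeugopod cells have *Meg3*, with or without *Dlk1*.

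Among all 4898 genes, likeness to each imprinted gene was the mean over the 4 groups of tissue and run, weighted by cells, of the Spearman coefficient within the group. The gene most like *Igf2* was *H19*, at 0.474 over all retained cells, followed by the ribosomal protein gene *Rps9* at 0.372, where the median over genes was 0.0853. The genes most like *H19* were *Igf2*, *Cdkn1c* at 0.429 and *Zscan26* at 0.402. *H19* was also the gene most like *Cdkn1c*, ahead of *Mfap2* at 0.407 and *Ubb* at 0.398. By CPM, *H19* and *Igf2* remained first for each other, *H19* stood at place 3 for *Cdkn1c*, and *Meg3* at place 3 for *Dlk1*.

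The gene most like *Dlk1* was *Meg3* at 0.327, followed by *Igf1* at 0.298 and the collagen gene *Col3a1* at 0.293, with the autopod groups counted as 0. For *Meg3* itself *Tcf7l2* at 0.349, *Pkm* at 0.339 and *Marcks* at 0.336 came first. *Dlk1* stood at place 5, with its autopod groups counted as 0. Within NXT0142 and NXT0143 zeugopod cells *Dlk1* had 0.46 and 0.59 with *Meg3*. There *Tcf7l2* had 0.40 and 0.51, *Pkm* 0.40 and 0.29, and *Marcks* 0.55 and 0.38. *Mest* was most like *Pfn1* at 0.480, *Hspa5* at 0.455, *Zfp189* at 0.444, *Pdia3* at 0.443 and *Atxn7l3* at 0.440, where the median over genes was 0.161. The autopod runs NXT0072 and NXT0143 disagreed for *Pdia3* (0.62 and 0.12) and *Atxn7l3* (0.62 and −0.13). In NXT0143 autopod cells *Pfn1* had 0.66, *Hspa5* 0.35 and *Zfp189* 0.51. These likeness values are not adjusted for the genes detected, with which *Mest* had 0.49 in the zeugopod and 0.52 in the autopod. The imprinted growth gene nearest to *Mest* was *Peg3*, only at place 181 of 4897. *Hspa5* and *Pdia3* encode a chaperone and a disulfide isomerase of the endoplasmic reticulum, and *Pfn1* the actin-binding protein profilin.

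For the other genes the first 3 places were *St13* at 0.384, *Cftr* at 0.341 and *Dek* at 0.335 for *Peg3*, and *Mef2c* at 0.353, *Col9a3* at 0.346 and *Ugdh* at 0.309 for *Plagl1*. *Col9a3* encodes a cartilage collagen. *Ndn* was most like *Cnbp* at 0.435, *Dcakd* at 0.407 and *Morf4l2* at 0.405. *Grb10* was most like *Calm2* at 0.436, *RP24-503L4.2* at 0.428 and *Malat1* at 0.427.

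Some of the genes differed within the zeugopod with the markers of cartilage. Cells with at least 5 reads of 3 or more of the 5 chondrogenic markers numbered 38 in the zeugopod, 19 in each run, with 26 at exactly 3 markers and 38 more just below at 2. In them *Grb10* was higher by 1.91 in mean log2 value than in the other zeugopod cells, with 1.57 in NXT0142 and 2.20 in NXT0143. *Plagl1* was higher by 1.80 (0.84 and 2.75 by run), and was on in 21 of the 38 cells against 16 of the other 85. *Dlk1* differed the other way by −1.20 (−1.83 and −0.62) and *Meg3* by −1.16 (−1.20 and −1.09). *Igf2* had −0.26, and the runs had opposite signs for *Mest* (−1.44 and 0.30) and *Ndn* (−1.08 and 2.15). The median over all 4898 genes was −0.21, and these cells had a median of 3869.5 genes detected against 4051.

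Of 76 autopod cells 35 met the same marker count, 30 of them at exactly 3 markers, with 24 more at 2. *H19* was higher in them by 2.64, with 3.02 in NXT0072 and 1.30 in NXT0143. *Cdkn1c* was higher by 1.92 (2.31 and 0.53 by run) and *Igf2* by 1.62 (1.01 and 3.75). The median over all genes was −0.55, and the genes detected had medians of 3390 and 3890. The autopod runs had opposite signs for *Meg3* (−0.55 and 3.07), *Grb10* (−0.19 and 2.41), *Plagl1* (−0.15 and 2.00), *Mest* (−0.87 and 0.16) and *Peg3* (−0.02 and 0.80). With CPM the signs stayed opposite for *Meg3* (−0.67 and 4.16) and *Mest* (−0.39 and 0.65) and not for the other 3, as for *Grb10* (0.46 and 2.82).

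Cycling cells, with at least 5 reads of 3 or more of 4 cell cycle markers, made up 23.7% of the autopod (18 cells) and 18.7% of the zeugopod (23 cells). They had more genes detected, with medians of 4170.5 against 3402 in the autopod and 5053 against 3900.5 in the zeugopod, and the median over all genes was itself higher in them by 1.01 and 0.80. Against that, *Grb10* was higher by 1.60 in the autopod and 1.85 in the zeugopod, *Mest* by 2.44 and 1.03, and *H19* by 2.81 and 0.31. With CPM the *Grb10* values were 0.72 and 1.34 and the *Mest* values 1.75 and 0.46, while *H19* had 1.87 in the autopod and changed sign to −0.41 in the zeugopod. Only 2 autopod cells of NXT0143 were cycling, so the autopod values rest on NXT0072. The part of depth in these differences was not tested.

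Other imprinted genes were taken from 2 lists. Of 18 other paternally expressed genes 16 were in the normalized table and 7 met the minimum of reads, *Peg10*, *Snrpn* and *Slc38a4* through the zeugopod alone, which favours a difference in that direction. Of these 3 were at least 2-fold higher in the zeugopod over all cells and 0 in the autopod, against 13.4% and 6.06% of all genes, and their median difference was −0.82, against −0.12 for all genes. Of the 4 that met the minimum in each tissue 2 were higher in the zeugopod and 0 in the autopod, against 12.9% and 5.90% of the 3438 genes that did, with a median of −0.72. The 3 were *Peg12* at −1.30, *Nnat* at −1.10 and *Peg10* at −1.09. Within NXT0143 they had 1.43, −0.13 and −0.51, so that 0 of the 7 were 2-fold toward the zeugopod and 1 toward the autopod, against 9.21% and 18.4%, and the median of the 7 was −0.08. Without the chondrogenic cells *Peg12* had −0.49 and *Peg10* −0.96, below 2-fold.

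Of 18 other maternally expressed genes 14 were in the table and 8 met the minimum, *Rian* through the zeugopod alone. Of these 4 were at least 2-fold higher in the zeugopod and 0 in the autopod, against 13.4% and 6.06%, with a median of −1.27, and of the 7 that met it in each tissue 3 and 0, against 12.9% and 5.90%, with a median of −0.89. Within NXT0143 there were 2 and 1, against 9.21% and 18.4%, with a median of −0.17, and the 1 was *Tssc4* at 2.61, which had −1.21 between NXT0072 and NXT0142. Of the 7 that met the minimum in each tissue there were 1 and 1 in that run, beside those same shares of all genes, with a median of −0.15. *Rian*, a noncoding RNA of the *Dlk1* and *Meg3* cluster, had −3.99 over all cells and −4.05 within NXT0143, and was on in 79 zeugopod cells (64.2%) and 11 of 76 autopod cells (14.5%). *Igf2r*, the receptor that clears *Igf2*, had −2.52 and −0.84, *Asb4* −2.38 and −1.14, and *Cd81* −1.65 and −0.10. Across zeugopod cells *Rian* had a coefficient of 0.42 with *Meg3* (0.44 within NXT0142, 0.40 within NXT0143) and 0.33 with *Dlk1* (0.18 and 0.49). The noncoding RNA *Mirg* of that cluster, chosen after its values were seen, fell below the minimum, with 23 zeugopod cells and 1 autopod cell at 5 reads.

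Of 13 genes of the insulin-like growth factor pathway 11 met the minimum, *Igfbp5*, *Igf1*, *Igfbp3*, *Igfbp2* and *Insr* through the zeugopod alone. Over all cells 6 were at least 2-fold higher in the zeugopod and 0 in the autopod, against 13.4% and 6.06%, with a median of −1.26, and of the 6 that met it in each tissue 3 and 0, against 12.9% and 5.90%, with a median of −1.20. Within NXT0143 there were 5 and 1, against 9.21% and 18.4%, with a median of −0.84, and the 1 was *Igf2bp1* at 1.52, which had −0.35 over all cells. Of the 6 that met the minimum in each tissue there were 2 and 1 in that run, beside those same shares of all genes, with a median of −0.39. The largest difference toward the zeugopod in that run with normalized values was that of *Igf2bp3*, −2.47, with −0.96 over all cells. By CPM in that run *Igfbp5* came first, at −3.23 against −2.77 for *Igf2bp3*. Among the binding proteins *Igfbp5* had −2.85 over all cells and −2.45 within NXT0143, *Igfbp4* −1.43 and −1.62, and *Igfbp3* −1.26 and −1.22. The ligand *Igf1* had −2.51 and −1.65, and was on in 46 zeugopod cells and 1 autopod cell. The receptor *Igf1r* had −2.55 over all cells and 0.07 within NXT0143, so the 2-fold difference was absent in the run that held both tissues. *Igf2r*, which is in this list too, is given above.

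**Figure D5:**
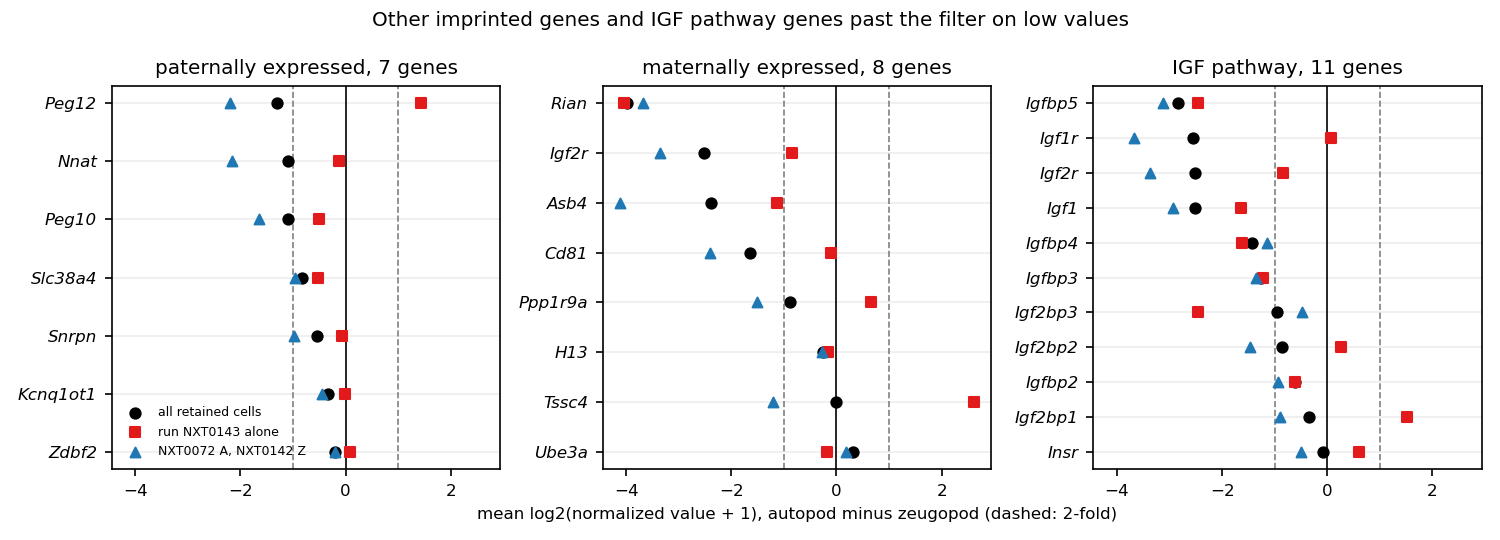
Difference in mean log2(normalized value + 1), autopod minus zeugopod, for 7 other paternally expressed genes, 8 other maternally expressed genes and 11 genes of the insulin-like growth factor pathway, over all retained cells, within NXT0143, and for NXT0072 autopod cells against NXT0142 zeugopod cells, with dashed lines at 2-fold. *Rian*, *Asb4*, *Igfbp5*, *Igf1*, *Igfbp4* and *Igfbp3* lie past the zeugopod line in all 3 comparisons, while *Peg12*, *Tssc4* and *Igf2bp1* lie past the autopod line within NXT0143.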

How the data were processed

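Polyadenylated RNA of single forelimb cells was made into cDNA with the SMARTer kit on the C1 and into libraries with Nextera XT. Per the labels, the authors mapped reads with Bowtie2 to GRCm38. They deposited raw counts, reads per gene and cell. They also deposited a normalized signal, which is counts divided by spike-in size factors, plus 1, per kb of gene length, for the retained cells. No mapping was repeated. Spike-in counts were only compared with the size factors. CPM was computed from reads on genes.

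Differences used a pseudocount of 1. Cells were thinned to 500000 reads without replacement (seed 42), and shallower cells were left out. Shares have exact 95% intervals. No test was run, because each tissue is 1 pooled sample. No doublet caller was run. Marker lists were chondrogenic, muscle, tendon, epithelium, endothelium, blood, macrophage, limb mesenchyme and cell cycle.

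Genes named were the 10 imprinted growth genes, the 5 most like *Mest* and 3 most like each other gene, and, from the lists of other imprinted and pathway genes, up to 6 past 2-fold in each direction, and those past 2-fold within NXT0143. The genes and lists were chosen with earlier results of these data known. Alternatives were CPM, pseudocounts of 0.1 and 10, each run alone, thinning, no minimum of reads, leaving out chondrogenic cells, 1 read in place of 5, and partial correlations given genes detected. The calculations were tested on simulated data. Python 3.11.15, numpy 2.4.6, pandas 2.3.3, scipy 1.17.1 and matplotlib 3.10.9 were used.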

Additional observations from a re-analysis of the deposited data

Results flagged for a closer look

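For 2 of the 10 genes the comparison within a run and the comparison between runs had opposite signs. *Plagl1* had a log2 difference, autopod minus zeugopod, of −0.71 within NXT0143 and of 0.25 between the autopod cells of NXT0072 and the zeugopod cells of NXT0142. *Ndn* had 0.43 within NXT0143 and −1.55 between those runs. The difference between the 2 comparisons was not tested.

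Counted tissue by tissue, 2 genes had at least 5 reads in more than 3 of the cells that the authors did not retain. The limit set for a count of 0 is 3 cells, and here it is only the mark for listing a gene. *H19* had at least 5 reads in 4 of the 20 autopod cells not retained (20.0%), with 45237 of its 45408 reads there in 1 cell. *Meg3* had at least 5 reads in 4 of the 6 zeugopod cells not retained (66.7%). The source of these reads was not tested.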

How the results depend on the processing

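The count of genes at least 2-fold higher in the zeugopod was 7, against 13.4% of all 4898 genes. Over the alternatives it ranged from 5 to 7. The share of all genes ranged from 5.29% with a pseudocount of 10 to 24.3% between NXT0072 and NXT0142. That share was 19.8% with CPM, 19.3% with a pseudocount of 0.1 and 20.5% after thinning. The count toward the autopod was 0, against 6.06%. It became 1 with a pseudocount of 0.1 (*Grb10* at 1.01, against 9.88%), within NXT0143 alone (*Cdkn1c* at 1.08, against 18.4%) and without the chondrogenic cells (*Grb10* at 1.37, against 13.1%). The median correlation in zeugopod cells, 0.238, became 0.112 with CPM, 0.138 given the genes detected and 0.106 after thinning. The median in autopod cells, 0.222, became 0.117 with CPM, 0.123 given the genes detected, 0.113 after thinning and 0.293 without the chondrogenic cells. It became 0.169 within NXT0072 and 0.135 within NXT0143, where the medians over all pairs of genes were 0.166 and 0.1004. The value within NXT0072 was thus close to that of all pairs. Within NXT0143, with the values by CPM second, differences changed sign on the normalized scale alone for *Ndn* (0.43 and −0.04) and *Igf1r* (0.07 and −0.64). They did so on each scale for *Peg12* (1.43 and 1.18), *Tssc4* (2.61 and 2.24) and *Igf2bp1* (1.52 and 1.41). Within 2-fold, they changed sign without the chondrogenic cells for *Cdkn1c* (−0.09), *Plagl1* (0.30), *Igf2bp1* (0.04) and *Tssc4* (0.09), between NXT0072 and NXT0142 for *Plagl1* (0.25), and with a pseudocount of 10 for *Tssc4*, near 0 on each side. The cause was not tested.

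Of 80 values for the differences of the 10 genes under alternatives, 67 kept their direction and their side of the 2-fold mark, 9 kept only their direction and 4 changed sign. Of the values for the other named genes, 89 kept both, 21 only their direction and 10 changed sign. Of 40 shares of cells counted at 1 read or after thinning, 28 stayed inside their interval. The alternatives for the other named genes, and NXT0143 alone with CPM, were chosen after seeing the data. No paired analysis was possible because cell numbers only name the cells. The 17 autopod cells of NXT0143 limit the comparison within a run. A count of 0 among them has a limit of 17.6% (3 of 17) and an exact upper end of 19.5%.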
